A study of Mus musculus with 9 samples.

Results

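The mitochondrial ribosome, or mitoribosome, translates the small set of messages encoded by mitochondrial DNA, all of which are subunits of the respiratory chain and ATP synthase. Its protein subunits are encoded in the nucleus, made in the cytosol and imported, where they join 2 ribosomal RNAs made inside the organelle. Some descend from bacterial ribosomal proteins and others exist only in mitochondria. The genes described here are those whose symbol starts with Mrpl (named for the large subunit) or Mrps (for the small subunit) followed by a digit. The names do not always hold: 2 genes named Mrps, Mrps18a and Mrps30, belong to the large subunit. Mrps36 is not part of the ribosome. All genes found by the rule are called mitoribosome genes below for short. The rule found 77 of the 16165 genes with deposited values, 48 named Mrpl and 29 named Mrps, on 17 chromosomes.

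Total lung RNA was sequenced in 9 libraries from mice, in 3 groups of 3, and each library is taken here as 1 mouse, since the labels mention no pooling. Control mice (genotype Control) received vehicle for 3 weeks, and their labels name no Dox. Their descriptions read ST and Normal, and those of the TGFalpha mice BT and Dox. These descriptions do not explain ST and BT. Mice of genotype TGFalpha were on Dox for 6 weeks and received either vehicle or pirfenidone, an antifibrotic drug, in the last 3 weeks. Transforming growth factor alpha is a ligand of the EGF receptor, and the series title places these mice in the study of severe fibrotic lung disease. The series description can be read as Dox for control mice too, and if controls had none, transgene and Dox cannot be told apart in any comparison with control. No source used here gives the promoter that drives the transgene, or the age, sex and strain of the mice. No control mice received pirfenidone.

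The values are RPKM as the authors deposited them: reads per kilobase of a gene's length, relative to the total of its library. These totals ran from 11428709 to 18874158 reads per library. The tests covered the 13849 genes that exceeded 1 RPKM in 3 or more libraries. All 77 mitoribosome genes were among them, each above 1 RPKM in every library. "Rose" and "fell" below stand for an adjusted p under 0.05 in limma (log2 of RPKM + 1, Benjamini-Hochberg over all tested genes), and folds are ratios of mean RPKM. As a check of the tissue, the summed RPKM of 8 alveolar type 2 cell markers was at least 16330 in every library. The mouse Tgfa row did not separate TGFalpha mice on vehicle (6.85 ± 0.83 RPKM, SD, n = 3) from control (6.84 ± 0.79), and whether reads of the transgene count toward that row is not given in the sources used here. On the principal components of all tested genes, vehicle library 1 and pirfenidone library 3 lay nearest to the other TGFalpha group. The second component was 3.73 in vehicle library 1 against -26.9 and -27.1 in the other vehicle libraries, and -16.4 in pirfenidone library 3 against 28.3 and 33.6 in the other pirfenidone libraries.

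The transcription factor NRF1 and the ETS factor GABP are known regulators of nuclear genes for mitochondrial proteins. RefSeq promoters (250 bases before to 50 after the start, GRCm38.p6) were found for 68 of the 77 genes, and 4 motifs were searched on both strands. Shown are the promoters of Mrps9, Mrpl32 and Mrpl12, which had the 3 largest called increases with TGFalpha on vehicle, of Mrps16, which had the smallest adjusted p with pirfenidone against control, and of Mrps11, which starts close to a second mitoribosome gene. Each runs 5′ to 3′ on the strand of the gene, with motif matches in capitals. In Mrps9 (chr1:42850983-42851282, plus strand) the capitals mark an NRF1 match, in Mrpl32 (chr13:14612988-14613287, minus strand) 3 NRF1 matches of which 2 overlap, and in Mrpl12 (chr11:120484387-120484686, plus strand) an NRF1 match. In Mrps16 (chr14:20393441-20393740, minus strand) they mark 2 ETS matches; a second listed promoter of Mrps16 (chr14:20393585-20393884) held no match to the 4 motifs and is not shown. In Mrps11 (chr7:78782881-78783180, plus strand) they mark a YY1 match on the reverse strand.
Mrps9: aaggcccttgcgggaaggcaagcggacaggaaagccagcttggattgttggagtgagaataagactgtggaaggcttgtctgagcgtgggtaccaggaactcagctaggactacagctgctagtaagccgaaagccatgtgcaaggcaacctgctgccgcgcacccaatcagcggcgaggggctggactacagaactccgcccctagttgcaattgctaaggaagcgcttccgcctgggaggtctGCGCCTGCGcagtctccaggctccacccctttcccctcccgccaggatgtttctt
Mrpl32: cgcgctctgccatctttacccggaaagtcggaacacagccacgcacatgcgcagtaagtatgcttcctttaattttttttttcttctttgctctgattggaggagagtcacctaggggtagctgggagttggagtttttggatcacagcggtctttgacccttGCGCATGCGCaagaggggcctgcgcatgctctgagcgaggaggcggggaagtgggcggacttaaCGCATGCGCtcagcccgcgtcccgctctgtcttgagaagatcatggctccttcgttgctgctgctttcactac
Mrpl12: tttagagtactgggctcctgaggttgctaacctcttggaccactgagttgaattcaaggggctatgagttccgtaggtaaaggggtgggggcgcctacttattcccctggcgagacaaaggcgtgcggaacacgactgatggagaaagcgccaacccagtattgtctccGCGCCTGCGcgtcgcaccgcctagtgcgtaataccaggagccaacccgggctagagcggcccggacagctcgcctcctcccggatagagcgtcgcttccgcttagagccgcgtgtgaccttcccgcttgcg
Mrps16: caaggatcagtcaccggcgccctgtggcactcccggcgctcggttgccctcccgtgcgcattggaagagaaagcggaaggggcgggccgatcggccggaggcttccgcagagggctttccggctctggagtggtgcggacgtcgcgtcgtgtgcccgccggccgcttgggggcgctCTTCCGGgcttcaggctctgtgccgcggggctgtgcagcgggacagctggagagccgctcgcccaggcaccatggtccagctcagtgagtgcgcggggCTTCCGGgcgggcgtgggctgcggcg
Mrps11: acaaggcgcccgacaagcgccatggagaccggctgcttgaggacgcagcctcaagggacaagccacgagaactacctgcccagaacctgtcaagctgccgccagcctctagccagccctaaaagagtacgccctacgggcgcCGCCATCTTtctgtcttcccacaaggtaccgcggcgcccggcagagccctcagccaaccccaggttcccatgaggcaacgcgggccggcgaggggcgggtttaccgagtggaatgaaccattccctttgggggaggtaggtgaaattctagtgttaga

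The NRF1 motif GCGCNTGCG stood in 18 of 68 promoters (26.5%), against 14.3% of the promoters of 10935 tested genes. The ETS motif CCGGAAG stood in 25 (36.8%), against 18.8%, and at least 1 of these 2 motifs in 52.9%, against 29.9%. The YY1 motif AAGATGGCG stood in 8 (11.8%), against 3.32%, while the E-box CACGTG stood in 5 (7.35%), against 11.4%. The median number of CpG dinucleotides per promoter was 21 in both sets. Of the promoters of genes that rose in a comparison with control, 3 of 15 held the NRF1 motif, 5 the ETS motif, 1 the E-box and 4 the YY1 motif. Of the other 53, these numbers were 15, 20, 4 and 4. A gene was counted when any of its listed promoters held the motif, overlaps between motifs were not removed, and a match in these windows is a description of letters only.

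**Figure D1:**
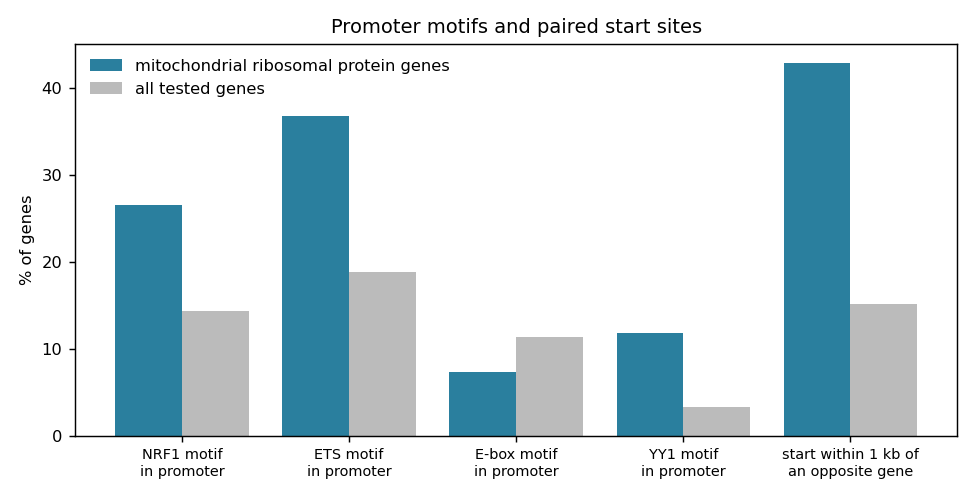
Share of genes (%) with each motif in the promoter window (68 mitoribosome genes, 10935 tested genes) or with a start site within 1 kb of a gene on the opposite strand (77 and 13287 genes). Bars of the mitoribosome genes are higher for NRF1 (26.5%), ETS (36.8%), YY1 (11.8%) and paired start sites (42.9%), and lower for the E-box (7.35%).

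Many of these genes also share their start region with a neighbour. A gene on the opposite strand started within 1 kb of 33 of the 77 (42.9%), against 2016 of 13287 tested genes with a position (15.2%). Mrps11 and Mrpl46 are each other's partner, with 412 bases between their starts. The start of Mrpl32 lies 75 bases from that of Psma2, a proteasome subunit, and the start of Mrpl2 lies 207 bases from that of Klc4, a kinesin light chain. Exons of 25 mitoribosome genes overlapped those of another gene, 21 of them on the opposite strand. Whether the authors' counting used strand is not given in the sources used here, so reads of such pairs could be shared. Among genes named below this holds for Mrps27, Mrpl48, Mrpl12, Mrpl13, Mrpl27, Mrpl19, Mrps25, Mrps18b, Mrpl24, Mrpl43 and Mrpl9 on the opposite strand and for Mrpl33, Mrps18c and Mrps6 on the same strand.

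Levels spanned 24.8-fold, from 3.40 to 84.3 RPKM (mean of 9 libraries), with a median of 21.0 RPKM against 10.5 over all tested genes. Each gene drew between 101 and 1113 reads per library, which gives a counting error of 9.95% to 3.00%. The median within-group coefficient of variation was 10.1%, against 12.9% over all tested genes. The gene models were short, with a median of 1065 bases against 2884. Median levels were 22.0 RPKM for genes named Mrpl and 18.5 for those named Mrps, and 24.3 for 48 genes with a bacterial counterpart against 16.7 for 29 specific to mitochondria.

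The most abundant was Mrpl33, a large subunit protein with a bacterial counterpart, at 71.9, 68.2 and 79.3 RPKM in control, 82.7, 84.6 and 89.8 with TGFalpha on vehicle and 92.6, 98.2 and 91.5 with pirfenidone. Every TGFalpha library was above every control library. Mrpl52, a large subunit protein specific to mitochondria, was at 54.6, 55.7 and 76.4 RPKM in control, 69.4, 84.1 and 99.7 on vehicle and 77.1, 84.5 and 94.2 with pirfenidone, and control 3 lay above vehicle 1. Mrps21, of the small subunit, spanned 61.4 to 84.9 RPKM over the 9 libraries with groups that overlapped. Mrpl42 and Mrpl30 followed. Mrpl30 rose in neither comparison with control (adjusted p = 0.206 and 0.0704), although its control libraries, 40.7 to 42.8 RPKM, lay below all vehicle libraries, 45.7 to 51.1. At the other end, Mrps25 averaged 3.15 ± 0.50, 3.55 ± 0.56 and 3.50 ± 0.35 RPKM (SD, n = 3) in control, vehicle and pirfenidone mice, and Mrpl19 averaged 3.32 ± 0.69, 4.20 ± 0.56 and 3.90 ± 0.36. Mrps25 shares 3533 exon bases with Nr2c2 and Mrpl19 shares 1962 with Gcfc2, and reads of such pairs cannot be told apart if the counting ignored strand.

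Summed over the 77 genes, control libraries held 1560, 1606 and 1732 RPKM, vehicle libraries 1688, 2011 and 1956, and pirfenidone libraries 1766, 1980 and 2002. Vehicle library 1 lay below control library 3, and pirfenidone library 1 was the lowest of its group. The means were 1633 ± 89.1, 1885 ± 173 and 1916 ± 130 RPKM (SD, n = 3), 1.16-fold and 1.17-fold the control mean. For genes named Mrps these folds were 1.12 and 1.14, and for those named Mrpl 1.17 and 1.20. The number of the 77 genes above their own control mean was 17, 31 and 60 in the control libraries, 50, 75 and 70 in the vehicle libraries and 52, 70 and 74 in the pirfenidone libraries. In bulk tissue, a change in the share of a cell type and a change in RNA per cell cannot be told apart.

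**Figure D2:**
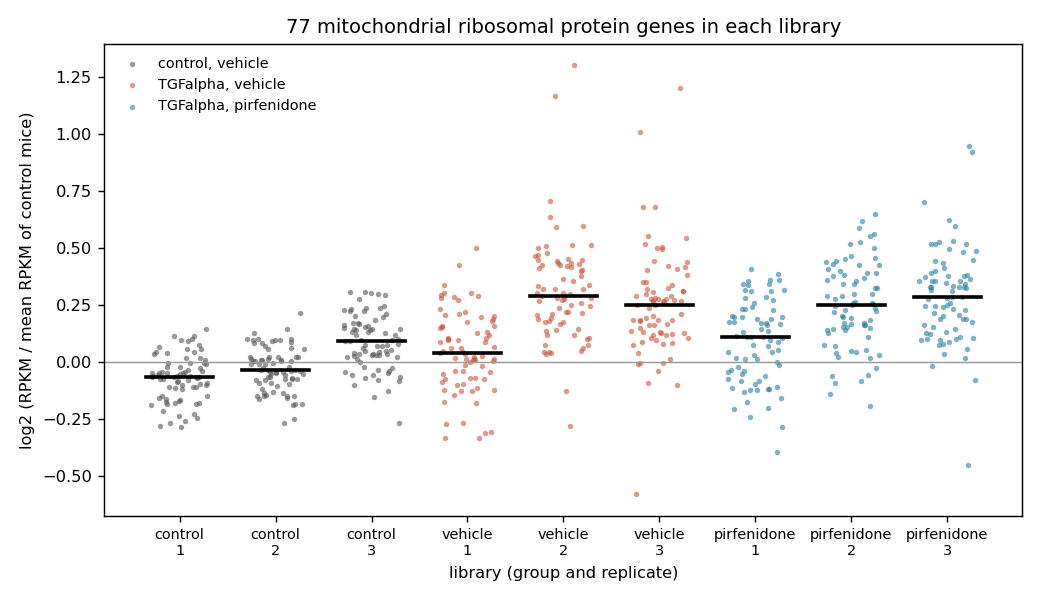
Log2 ratio of RPKM to the mean RPKM of the control mice for 77 genes (points) in each of 9 libraries, with the library's median as a bar; the x axis gives group and replicate. In vehicle libraries 2 and 3, 75 and 70 genes lie above 0, and in vehicle library 1 only 50, fewer than the 60 of control library 3.

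Other cell types differed between the same libraries. The summed RPKM of 6 macrophage markers was 8599 in control 3, of which Chil3 supplied 8290, against 373 and 451 in the other control libraries, 839 to 1532 in the vehicle libraries and 578 to 783 with pirfenidone. None of the 6 macrophage markers passed in the limma fits. Skeletal muscle markers (10 genes, 0 of 8 tested called) summed to between 8.26 and 12.4 RPKM in control, to 952, 351 and 3.61 in vehicle libraries 1 to 3 and to 254, 1412 and 8.15 in pirfenidone libraries 1 to 3. Proliferation markers (6 genes, 0 of 6 called in any comparison) summed to 10.2, 10.7 and 29.1 RPKM in control, 13.5, 36.4 and 32.5 on vehicle and 11.7, 12.3 and 30.3 with pirfenidone. The libraries with the higher proliferation sums in the control and vehicle groups were those with the higher sums of mitoribosome genes. In the pirfenidone group, libraries 2 and 3 had similar mitoribosome sums (1980 and 2002 RPKM) at proliferation sums of 12.3 and 30.3. Pirfenidone library 1 held 1766 RPKM at a proliferation sum of 11.7. A link between these sums was not tested. Alveolar type 2 markers (3 of 8 rose on vehicle, 0 with pirfenidone against control) summed to between 16330 and 17090 RPKM in control, to between 24740 and 27040 on vehicle, and to 16820, 17100 and 24600 with pirfenidone. Of 6 fibroblast markers 4 rose on vehicle and 5 with pirfenidone against control. Lower than control were 6 of 7 endothelial markers and 5 of 5 ciliated cell markers in each comparison, and of 6 alveolar type 1 markers 3 fell on vehicle and 5 with pirfenidone. On vehicle all 5 tested T cell, 4 B cell and 6 cardiac muscle markers fell, with 1 of each with pirfenidone, and 0 of 3 tested adipocyte markers passed in either limma fit. The part of these cell types in the results below was not tested.

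The comparison of TGFalpha mice on vehicle with control mice asks how the fibrosis model changes these transcripts. In it, 11 of 77 genes rose (14.3%) and 0 fell, against 12.0% of all tested genes that rose and 11.2% that fell, so the share that rose was near the background. The whole set leaned upward: 70 of 77 log2 fold changes were positive (90.9%, against 56.0% of all tested genes), with a median of 0.18 against 0.04 and a range from -0.37 to 0.96. The 77 genes are measured in the same mice, so such counts, here and below, are not of 77 separate observations. Within groups, the library medians over the 77 genes varied with a pooled SD of 0.10 on the log2 scale. The median fold was 1.13, and 2 genes, Mrps9 and Mrpl32, exceeded 1.5-fold. At an unadjusted p under 0.05 in limma, 22 were higher and 1 lower, against 5314 of 13849 tested genes in either direction, which is a larger share. Vehicle libraries lay above all control libraries for 22 genes (28.6%, background 25.4%) and below them for 2 (background 18.8%). By name, 7 of 48 Mrpl and 4 of 29 Mrps genes rose, and by ancestry 8 of 48 with a bacterial counterpart and 3 of 29 specific to mitochondria.

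The count depended on single libraries. Without vehicle library 2 or 3 it was 0, with 4.88% and 4.56% of all tested genes then higher, and without control library 1 or 2 it was 1 and 3 (background 6.02% and 5.90%). Without pirfenidone library 2 it was 6 (background 10.4%), and without vehicle library 1 it was 23 (background 14.3%). The median over the 77 genes stayed between 0.14 and 0.25 in these fits.

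Mrps9, a small subunit protein whose bacterial relative reaches toward the peptidyl tRNA, had the largest increase of the 77. Its gene lies at chr1:42851233-42905683 on the plus strand. It measured 19.4, 18.0 and 16.9 RPKM in control, 25.5, 44.5 and 41.6 with TGFalpha on vehicle, and 21.3, 23.7 and 34.9 with pirfenidone. Vehicle library 1 lay well below its 2 companions and pirfenidone library 3 above its own, while all 6 TGFalpha libraries exceeded control. On vehicle Mrps9 was 2.06-fold control (log2 fold change 0.96, SE 0.23, limma adjusted p = 0.0192), a call kept in 5 of 9 fits that each left out 1 library.

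Mrpl32 (chr13:14610301-14613037, minus strand) encodes a large subunit protein that is known to need cleavage by the mitochondrial m-AAA protease before it assembles. It measured 22.8, 23.1 and 23.7 RPKM in control, 31.1, 52.1 and 46.6 on vehicle and 21.7, 27.5 and 43.9 with pirfenidone. The pattern over libraries resembled that of Mrps9: vehicle 1 was the lowest of its group and pirfenidone 3 the highest of its own. On vehicle it was 1.87-fold control (log2 fold change 0.84, SE 0.25, adjusted p = 0.0442), a call kept in 3 of these 9 fits. The neighbour of its start, Psma2, measured 93.2 ± 10.1 RPKM in control and 113 ± 9.96 on vehicle (SD, n = 3) and did not pass (limma adjusted p = 0.0827). The vehicle libraries 2 and 3 and pirfenidone library 3, where both genes stood highest, had proliferation sums of 36.4, 32.5 and 30.3 RPKM. Control library 3, with a sum of 29.1, held the lowest Mrps9 value of the 9 libraries and Mrpl32 at the level of the other controls. A link between proliferation and these 2 genes was not tested.

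Mrpl12 (chr11:120484637-120488754, plus strand) forms the ribosome stalk that recruits translation factors. It measured 26.4, 30.6 and 36.4 RPKM in control, 38.0, 50.8 and 44.1 on vehicle and 39.5, 42.1 and 50.5 with pirfenidone, with all TGFalpha libraries above control. It rose 1.42-fold on vehicle (log2 fold change 0.50, SE 0.15, limma adjusted p = 0.0427), and the similar difference with pirfenidone, also 1.42-fold, missed the threshold (adjusted p = 0.0518). The vehicle call was kept in 3 of 9 fits that each left out 1 library.

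Mrpl2 (chr17:46646172-46650132, plus strand), a large subunit protein whose bacterial relative lies beside the peptidyl transferase center, rose in both comparisons with control. It measured 17.8, 21.2 and 20.5 RPKM in control, 24.4, 29.8 and 28.9 on vehicle and 25.3, 29.8 and 30.5 with pirfenidone. The groups did not overlap with control, at 1.40-fold on vehicle (log2 fold change 0.46, SE 0.11, adjusted p = 0.0198) and 1.44-fold with pirfenidone (log2 fold change 0.50, SE 0.11, adjusted p = 0.0172). Its neighbour Klc4 did not pass in either (limma adjusted p = 0.401 and 0.968).

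Mrpl16 (chr19:11770415-11774956, plus strand), which in bacteria lies near the tRNA binding sites, measured 10.2, 10.7 and 13.6 RPKM in control and 14.2, 17.4 and 16.2 on vehicle (log2 fold change 0.44, SE 0.13, adjusted p = 0.0353). With pirfenidone it measured 13.0, 13.8 and 15.7, so control 3 lay inside that group. The vehicle call of Mrpl16 was kept in 4 of 9 fits that each left out 1 library. Mrps35 (chr6:147042728-147070906, plus strand), a small subunit protein specific to mitochondria, measured 12.6, 13.8 and 14.6 RPKM in control, 17.3, 18.9 and 18.1 on vehicle and 16.5, 16.1 and 19.6 with pirfenidone. It rose in both comparisons (log2 fold changes 0.38 and 0.32, SE 0.09, adjusted p = 0.0218 and 0.0456).

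The other 5 genes that rose on vehicle changed by 1.21-fold to 1.33-fold. Mrpl23, which in bacteria sits at the exit of the peptide tunnel, averaged 30.1 ± 0.91 RPKM in control and 39.1 ± 3.81 on vehicle (SD, n = 3). Mrps27, which holds RNA-binding pentatricopeptide repeats, averaged 5.62 ± 0.27 and 7.46 ± 0.88, and Mrpl15, of the large subunit, 4.06 ± 0.41 and 5.36 ± 0.42. Mrpl48, of the central protuberance of the large subunit, averaged 23.5 ± 1.65 and 29.9 ± 1.35, and Mrps16, of the small subunit, 31.4 ± 1.64 and 38.0 ± 0.31. Of the 9 fits that each left out 1 library, 6 kept the call of Mrpl23 and 3 that of Mrps27. For all 11 genes that rose on vehicle, the vehicle libraries lay above the control libraries.

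Among genes without a call, Mrps6, of the small subunit platform, stood furthest below control. It measured 23.7, 24.9 and 28.2 RPKM in control, 20.6, 21.0 and 17.1 on vehicle and 21.0, 24.2 and 18.7 with pirfenidone. Vehicle and control did not overlap, but the change (log2 fold change -0.37, SE 0.12) missed the threshold with an adjusted p = 0.0531. Part of its exon sequence is shared on the same strand with Gm49711 (305 bases) and Slc5a3 (159 bases). Mrps17, the other gene whose vehicle libraries all lay below control, measured 29.1 ± 1.13 and 26.0 ± 1.67 RPKM (SD, n = 3, limma adjusted p = 0.139). Mrps6 and Mrps17 were singled out after their values were seen.

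Of the 3 relatives of a single bacterial protein, Mrps18b and Mrps18c belong to the small subunit and Mrps18a, despite its name, to the large. None passed in any comparison in the limma fit: on vehicle the log2 fold changes were -0.08 for Mrps18a, 0.10 for Mrps18b and 0.18 for Mrps18c (SE 0.11, 0.13 and 0.10). Mrps36 is now known as part of the 2-oxoglutarate dehydrogenase complex rather than of the ribosome. It measured 20.5, 20.4 and 19.9 RPKM in control, 22.5, 22.3 and 23.0 on vehicle and 15.4, 22.7 and 19.2 with pirfenidone. Its control and vehicle libraries did not overlap, yet no comparison passed in the limma fit (adjusted p = 0.392, 0.278 and 0.601). Nearest to 0 on vehicle were Mrpl38, Mrpl55 and Mrpl14, of the large subunit, at 0.995, 0.995 and 0.992 of their control means.

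**Figure D3:**
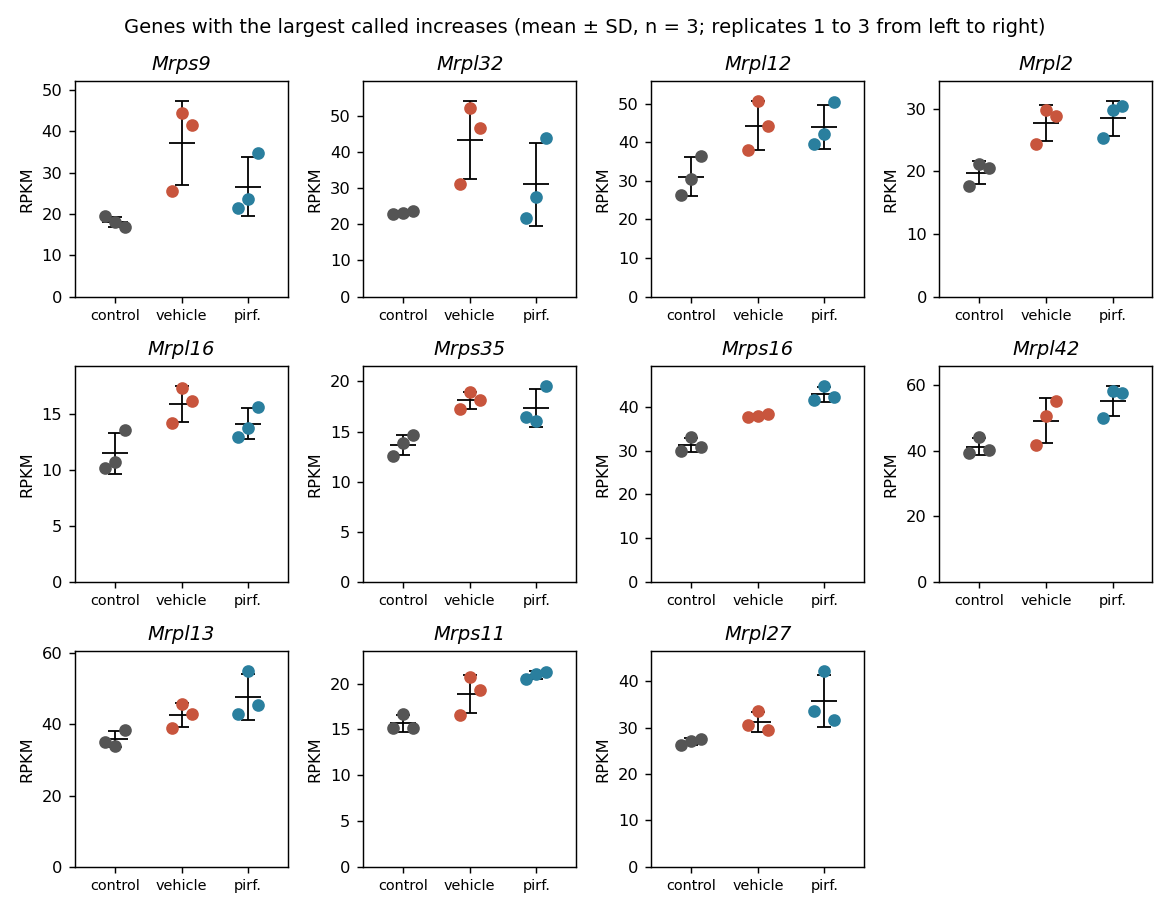
RPKM of the 11 genes with the largest called increases over control, by group (control, TGFalpha on vehicle, TGFalpha on pirfenidone); points are mice, bars mean ± SD of 3. Mrps9 and Mrpl32 have a low vehicle library (25.5 and 31.1) and a high pirfenidone library (34.9 and 43.9), while the groups of Mrps16 do not overlap.

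Pirfenidone and vehicle in TGFalpha mice were compared to ask what the drug changes. None of the 77 genes rose or fell in the limma fit, against 0.152% of all tested genes that rose and 0.549% that fell. Of the 77, 44 log2 fold changes were positive and 33 negative, with a median of 0.03, as over all tested genes, and a range from -0.50 to 0.22. The smallest adjusted p was 0.196, for Mrps16. It was the only gene of 77 with an unadjusted p under 0.05, against 2862 of 13849 tested genes. The means of 75 genes differed by at most 1.2-fold, and the other 2 were Mrpl32 and Mrps9. Standard errors ran from 0.06 to 0.25 on the log2 scale with a median of 0.11, so small differences were not detectable with these mice.

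The pirfenidone libraries lay above all vehicle libraries for 6 genes (7.79%, background 15.3%), namely Mrps24, Mrps16, Mrps17, Mrpl33, Mrpl24 and Mrpl9, and below them for 0 (background 9.13%). For Mrps16 they stood at 41.6, 44.9 and 42.4 RPKM against 37.8, 37.9 and 38.4 on vehicle, a difference of 0.17 (SE 0.07) on the log2 scale. Mrpl32 and Mrps9 had the largest differences, with log2 fold changes of -0.50 (SE 0.25, adjusted p = 0.303) and -0.46 (SE 0.23, adjusted p = 0.290). Their groups overlapped through vehicle library 1 and pirfenidone library 3. Without pirfenidone library 3, Mrpl32 was lower with the drug (log2 fold change -0.77, limma adjusted p = 0.0424), with 1061 of 13787 tested genes then lower. Without both of these libraries, a choice made after the data were seen, 4 genes were lower with the drug. They were Mrpl32 (log2 fold change -0.99), Mrps9 (-0.91), Mrps5 (-0.39) and Mrps2 (-0.30), with 1601 of 13677 tested genes then lower.

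Against control, TGFalpha mice on pirfenidone show where the drug group stands relative to lungs without the model. In it, 12 of 77 genes rose (15.6%) and 0 fell, against 10.6% of all tested genes that rose and 7.74% that fell. Of the 77 log2 fold changes 69 were positive (89.6%, against 57.2%), with a median of 0.21 against 0.05 and a range from -0.26 to 0.51. No gene reached 1.5-fold, and the median fold was 1.17. The pirfenidone libraries lay above all control libraries for 32 genes (41.6%, background 22.5%) and below them for 0 (background 14.8%). By name, 7 of 48 Mrpl and 5 of 29 Mrps genes rose. This comparison shares its control mice with that of vehicle against control, and the list of genes called in both, Mrps35, Mrpl15, Mrpl2, Mrpl48 and Mrps16, is given with that in mind. Of 9 fits that each left out 1 library, their calls on vehicle were kept in 5, 3, 6, 6 and 6, in that order. Their calls with pirfenidone were kept in 1, 3, 7, 1 and 9.

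A correction of each library for GC content and gene length, chosen after the data were seen, left 1 gene higher (Mrps16, background 8.01%) and 1 lower (Mrps6), with a median of 0.08. Under median-of-ratios scaling 6 genes rose, and the split over all tested genes moved from 1473 higher and 1072 lower to 1156 and 1356. Leaving out 1 library gave between 2 genes (without control 1 or pirfenidone 2, background 5.06% and 4.77%) and 17 genes (without control 3, background 12.5%). It gave 3 without control 2 and 4 without pirfenidone 1 (background 5.29% and 5.58%), and 7 and 6 without vehicle 2 and 3 (background 8.93% and 8.20%).

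Mrps16 (chr14:20391222-20393634, minus strand) had the smallest adjusted p of the 77. Its control libraries measured 30.1, 33.2 and 30.9 RPKM and its pirfenidone libraries at 41.6, 44.9 and 42.4, with the vehicle libraries in between, so that the 3 groups did not overlap. It was 1.37-fold control with pirfenidone (log2 fold change 0.44, SE 0.07, adjusted p = 0.00419) and passed in all 16 alternative settings.

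Mrpl42 (chr10:95480805-95501949, minus strand), a large subunit protein specific to mitochondria, measured 39.4, 44.2 and 40.3 RPKM in control and 50.1, 58.3 and 57.6 with pirfenidone (log2 fold change 0.41, SE 0.11, adjusted p = 0.0377). On vehicle it measured 41.7, 50.7 and 55.3, and vehicle 1 lay inside the control range. Mrpl13 (chr15:55534095-55557312, minus strand), whose bacterial relative binds early in large subunit assembly, measured 35.2, 34.0 and 38.3 in control and 42.9, 55.1 and 45.5 with pirfenidone (log2 fold change 0.40, SE 0.11, adjusted p = 0.0342). Of the 9 fits that each left out 1 library, 2 kept the Mrpl42 call and 5 the Mrpl13 call.

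Mrps11 (chr7:78783131-78792988, plus strand), of the small subunit platform, measured 15.2, 16.7 and 15.1 RPKM in control, 16.6, 20.7 and 19.4 on vehicle and 20.5, 21.1 and 21.3 with pirfenidone. It rose with pirfenidone (log2 fold change 0.40, SE 0.09, adjusted p = 0.0185). Its start-site partner Mrpl46 measured 12.5 ± 0.82 in control and 13.2 ± 2.61 with pirfenidone (SD, n = 3) and did not pass (limma adjusted p = 0.828), so the pair did not share a call. Mrpl27 (chr11:94653770-94661932, plus strand), whose bacterial relative lies at the peptidyl transferase center, measured 26.2, 27.1 and 27.7 in control and 33.6, 42.3 and 31.6 with pirfenidone (log2 fold change 0.38, SE 0.11, adjusted p = 0.0418). Of the 9 fits that each left out 1 library, 6 kept the Mrps11 call and 1 the Mrpl27 call.

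The remaining genes that rose with pirfenidone and not on vehicle were Mrps24, Mrps15 and Mrpl33. Mrps24, of the small subunit, stood at 24.8, 23.9 and 22.8 RPKM in control, 26.4, 26.9 and 25.9 on vehicle and 29.5, 28.4 and 30.0 with pirfenidone, 3 groups without overlap. It was 1.23-fold control with pirfenidone (limma adjusted p = 0.0174). Mrps15 averaged 25.0 ± 2.50 and 32.1 ± 0.46 RPKM in control and pirfenidone mice, and Mrpl33 73.1 ± 5.62 and 94.1 ± 3.62 (SD, n = 3). Of the 9 fits that each left out 1 library, 7 kept the call of Mrps24, 3 that of Mrps15 and 6 that of Mrpl33. A call in one comparison and not in the other does not show that vehicle and drug groups differ, and the direct comparison above called none of these genes.

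**Figure D4:**
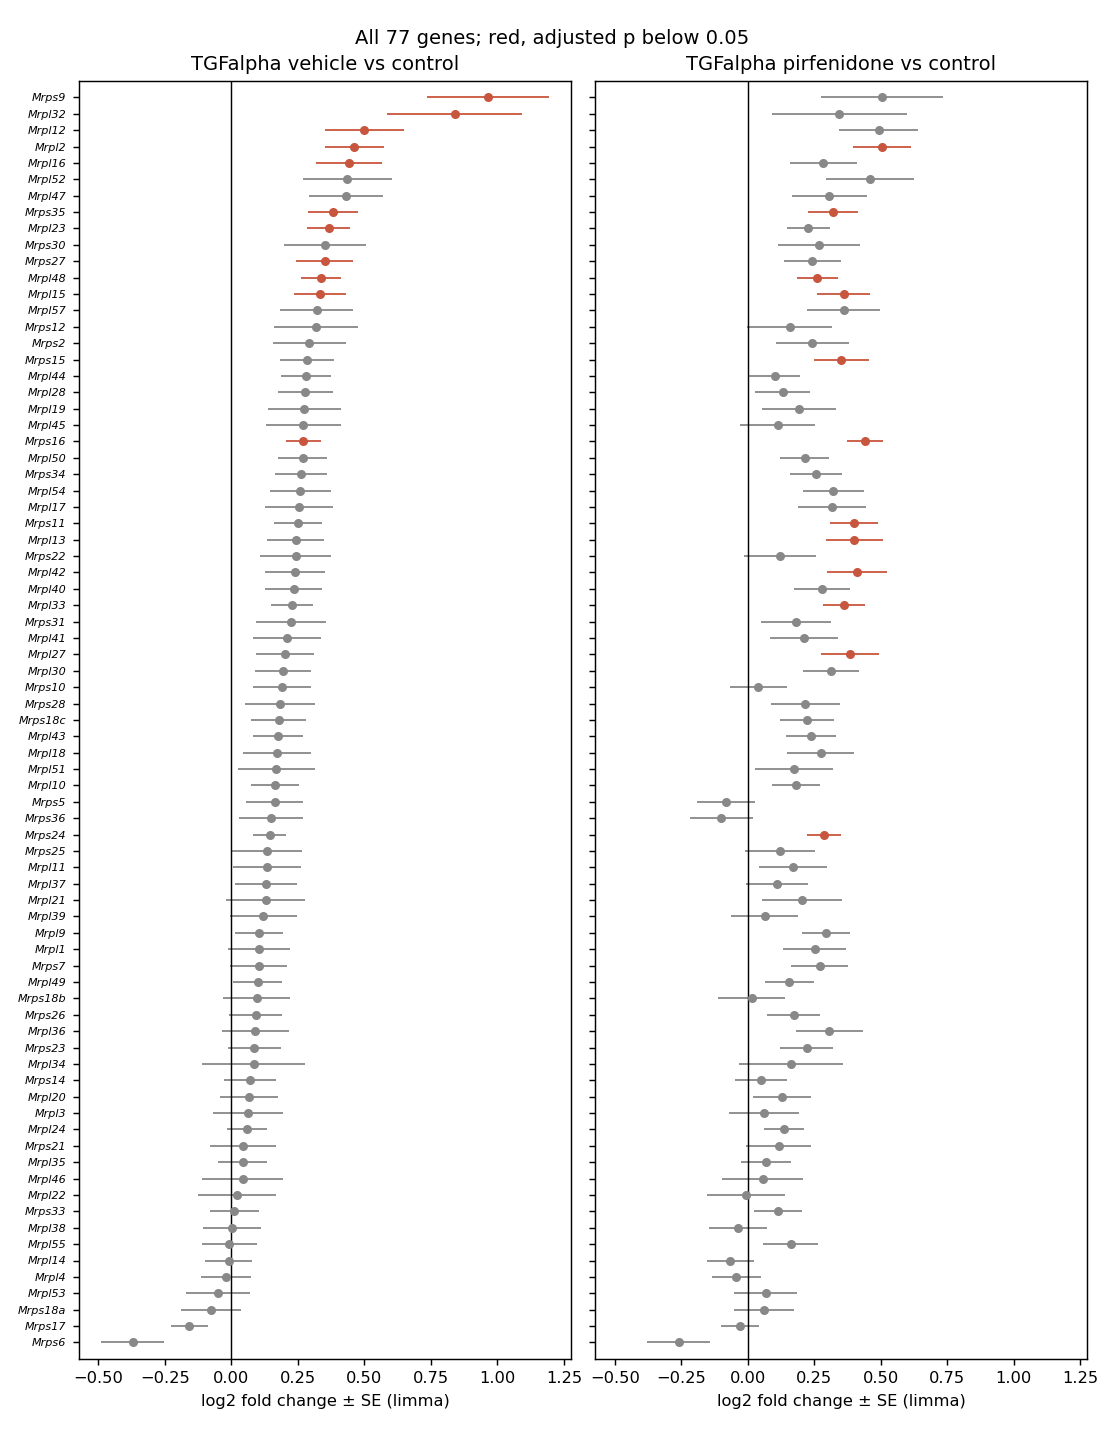
Log2 fold change ± SE (limma) of all 77 genes against control for TGFalpha mice on vehicle (left) and on pirfenidone (right), in the order of the left panel; red marks an adjusted p under 0.05 (11 and 12 genes). The estimates of 70 and 69 genes lie to the right of 0, and Mrps6 is the lowest in both panels.

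Other genes of mitochondrial translation were followed in lists by function. Of 6 mitoribosome proteins with other names, 0 passed on vehicle in the limma fit (median log2 fold change 0.18), and with pirfenidone Chchd1, of the small subunit, was higher than control (34.5 to 39.5 RPKM in control, 46.3 to 49.6 with the drug, adjusted p = 0.0274). Dap3, a GTP-binding protein of the small subunit, measured 9.51 to 9.77 RPKM in control and 10.6 to 13.5 on vehicle (adjusted p = 0.0684). Of 25 assembly and rRNA modification factors 1 rose on vehicle and 0 with pirfenidone, with a median of 0.06. It was Mpv17l2, which in human cells binds the large subunit (log2 fold change 0.35, SE 0.11, adjusted p = 0.0492), while the assembly GTPase Noa1 had an adjusted p = 0.107.

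Of 16 translation factors and related proteins 1 rose in each comparison with control. It was Oxa1l, the insertase that places newly made proteins in the inner membrane. Oxa1l measured 15.1, 15.4 and 16.4 RPKM in control, 19.3, 23.8 and 22.0 on vehicle and 20.5, 19.8 and 23.3 with pirfenidone (limma adjusted p = 0.0139 and 0.0212), without overlap of either group with control. The elongation factor Guf1 did not pass (adjusted p = 0.0949). Of 19 mitochondrial aminoacyl-tRNA synthetases and related enzymes 1 rose and 1 fell on vehicle. Iars2, the isoleucine enzyme, measured 17.3, 19.1 and 19.3 RPKM in control mice and 23.6, 25.0 and 24.8 on vehicle (adjusted p = 0.00995). With pirfenidone against control, Iars2 was the 1 gene of this list that rose (limma adjusted p = 0.0412), and 0 fell. Qrsl1, a subunit of the amidotransferase that makes glutaminyl-tRNA, measured 4.62, 5.22 and 4.71 in control mice and 3.60, 3.61 and 3.82 on vehicle (adjusted p = 0.0241).

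Of 13 genes of mitochondrial DNA maintenance and transcription 3 rose, with a median of 0.28. They were Tfb2m, a transcription factor of mitochondrial DNA (log2 fold change 0.40, adjusted p = 0.0224), Tefm, a transcription elongation factor (0.50, adjusted p = 0.0409) and Peo1, the replicative helicase (0.57, adjusted p = 0.0294). Peo1, in current annotation Twnk, is the start-site partner of Mrpl43. Of 7 regulators of mitochondrial biogenesis 2 rose on vehicle. Ppargc1a, the coactivator of biogenesis, measured 1.27, 1.22 and 0.918 RPKM in control, 2.49, 2.11 and 2.02 on vehicle and 0.892, 1.91 and 1.39 with pirfenidone (limma adjusted p = 0.0350 on vehicle). Gabpa, the ETS subunit of GABP, measured 14.5, 13.2 and 11.3 in control and 15.5, 17.9 and 17.8 on vehicle (adjusted p = 0.0359), and Nrf1 itself did not pass (adjusted p = 0.217). With pirfenidone 0 genes of these 2 lists passed against control in the limma fit.

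Of 17 citric acid cycle enzymes 4 rose on vehicle, among them Fh1 (fumarase, log2 fold change 0.49, adjusted p = 0.00548) and Suclg2 (a succinyl-CoA ligase subunit, 0.64, adjusted p = 0.0200), and 1 with pirfenidone. Of 22 genes of mitochondrial import and the outer membrane 1 rose on vehicle, the receptor Tomm20 (0.43, adjusted p = 0.0258). With pirfenidone 1 gene of this list was higher than control, Vdac1 (0.40, limma adjusted p = 0.0246). Timm44, which ties the import motor to the channel, did not pass (adjusted p = 0.0621). Of 78 nuclear genes of the respiratory chain and ATP synthase 15 rose and 2 fell on vehicle, with a median of 0.24, and 21 rose with pirfenidone, with a median of 0.30. The cytosolic ribosome, which has separate genes named Rpl and Rps, gave 74 of 79 genes that rose on vehicle (median 0.78) and 54 with pirfenidone (median 0.54). The difference between these lists and the 77 mitoribosome genes was not tested. Of 15 listed genes of the mitochondrial genome, 0 matched a symbol among the deposited values, so none was analysed here.

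**Figure D5:**
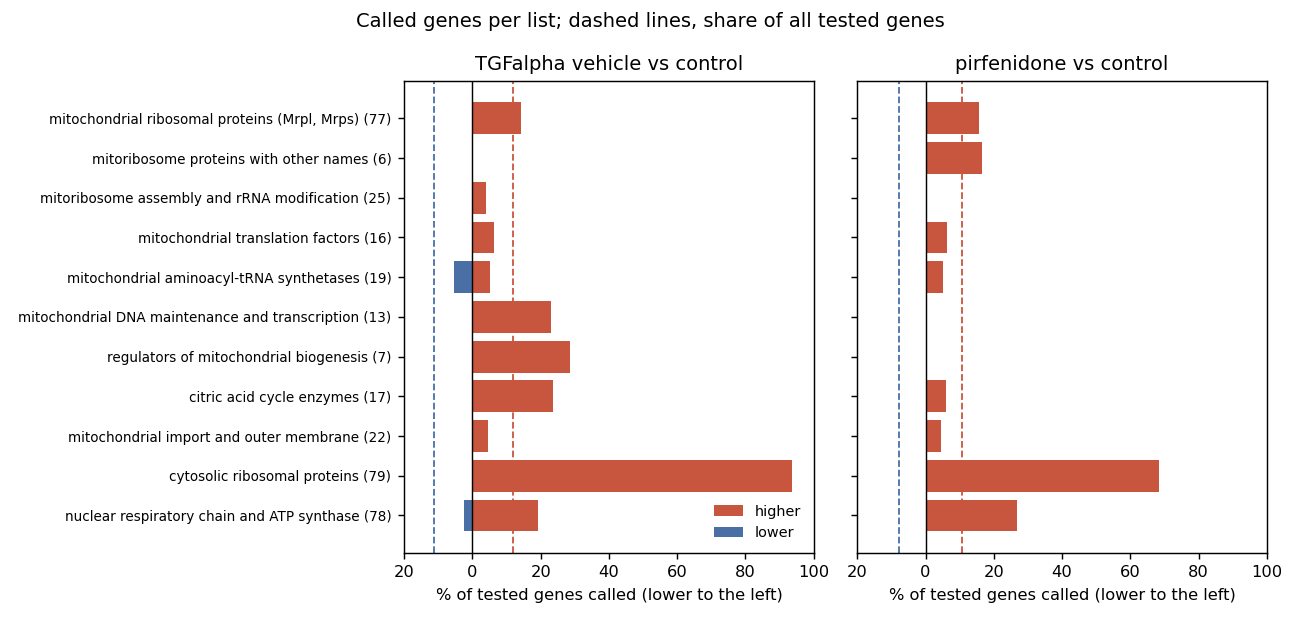
Share of tested genes (%) called higher (right) or lower (left) than control per list, for TGFalpha mice on vehicle and on pirfenidone, with the number of tested genes in brackets and the shares over all tested genes as dashed lines (12.0% and 11.2% on vehicle, 10.6% and 7.74% with pirfenidone). Cytosolic ribosomal proteins have 74 of 79 genes higher on vehicle, mitochondrial ribosomal proteins 11 of 77.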

How the data were processed

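Total lung RNA of 9 mice was extracted with an RNeasy column kit and sequenced with standard Illumina libraries, per the labels' protocols. Tools named by the submitters' processing notes are TopHat, DESeq, bcl2fastq and CASAVA 1.8, with the build mm10 and no role for any of them. The authors deposited RPKM values for 16165 genes. The file header names no unit, and it was settled from the values: with 1 total per library and 1 length per gene, 100% of values were whole reads within 0.001. This recovery was tested on simulated data and gave back 99.9% of 2000 genes. Library totals ranged from 11428709 to 18874158 reads, and counting errors cover counting only. Whether the counting used strand is not given in the sources used here. Symbols of 29 genes were settled by gene identifier.

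The limma-trend test (limma 3.58.1, R 4.3.3) was run on log2(RPKM + 1) in 1 model over 9 libraries with group as the only term (6 residual degrees of freedom, prior 2.67). Tests were two-sided with Benjamini-Hochberg adjustment over 13849 genes above 1 RPKM in at least 3 libraries. Folds of low genes are understated on this scale. The fit was tested on simulated data. The labels give each library as a separate sample and do not say whether animals were pooled or shared a litter, so p-values measure the spread between these samples. Positions, promoters and sequences are RefSeq on GRCm38.p6, the same assembly as mm10, and start-site neighbours and exon overlaps are from GENCODE on that assembly. Other steps and figures ran in Python 3.11.15 (pandas 2.3.3, numpy 2.4.6, matplotlib 3.10.9).

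The genes and the 23 lists were chosen with earlier results of these data known. The text names the 6 largest called increases per comparison with control whose replicates did not overlap, the 5 most and 2 least abundant genes, Mrps18a, Mrps18b, Mrps18c, Mrps36, the 3 genes nearest to 0 on vehicle and the 2 genes with the smallest p on vehicle of each list that holds no cell type markers. Other genes are named as members of a counted group. Alternatives were a pseudocount of 0.1, no filter, median-of-ratios scaling, only the 2 groups compared, a replicate block, each library left out, a GC content and gene length correction, and vehicle library 1 and pirfenidone library 3 left out together. The replicate numbers do not pair the mice by any label.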

Additional observations from a re-analysis of the deposited data

How the results depend on the processing

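All 3 medians over the 77 genes kept their sign under every setting run, except pirfenidone against vehicle, whose median near 0 ranged from -0.06 to 0.08 with 1 library left out and was -0.07 after the GC content and gene length correction and -0.091 without vehicle library 1 and pirfenidone library 3 together. In the comparison of vehicle with control, the number of genes higher was 9 under median-of-ratios scaling, 8 with only the 2 groups, 7 after the GC content and gene length correction and 25 without the 2 libraries, and it ranged from 0 to 23 with 1 library left out. The shares of all tested genes higher in these fits were 10.6%, 13.1%, 11.2%, 20.3% and 4.56% to 15.9%. The number lower was 1 (Mrps6) under median-of-ratios scaling, after the correction and without the 2 libraries, and 0 to 1 with 1 library left out. For pirfenidone against vehicle, 0 genes were higher in every limma fit, and the number lower was 0 to 1 with 1 library left out and 4 without the 2 libraries. Without the 2 libraries, 1340 of 13677 tested genes were higher and 1601 lower. Without pirfenidone library 3 alone, 1050 of 13787 were higher and 1061 lower. For pirfenidone against control, 6 genes were higher under median-of-ratios scaling, 8 with only the 2 groups and 1 after the correction, with 1 lower and a median of 0.075, and the number higher ranged from 2 to 17 with 1 library left out. The shares of all tested genes higher were 8.35%, 7.99%, 8.01% and 4.77% to 12.5%. Over all tested genes the correction gave 1075 higher and 1372 lower there, and 1502 and 1720 on vehicle, where scaling gave 1471 and 1755 against 1665 and 1557. The causes were not tested.

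With a replicate block, 13 genes were higher in each comparison with control and 0 passed for pirfenidone against vehicle. In that fit, 12.2% of all tested genes were higher on vehicle and 10.5% with pirfenidone, each against control. The labels do not say that a number marks a shared day or litter, and deviations of same-numbered libraries correlated between -0.14 and 0.46, so the numbers were not taken as pairs. The genes with the fewest reads (101 in a library) had a counting error of 9.95%, about the median spread within groups (10.1%), so depth limits them, and for genes with more reads counting error was smaller, down to 3.00%.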
